A study of Mus musculus with 11 samples.

Results

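The 9 genes described here encode enzymes of the methionine cycle and of sulfate activation: Mat2a, Mat2b, Ahcy, Ahcyl1, Mtr, Mtrr, Amd1, Papss1 and Papss2. They were taken by exact gene symbol from the expression values of 11 RNA-seq libraries, and all 9 were found among 23238 genes. The libraries came from mouse corpus cavernosum tissue, as cells labelled cavernous endothelial (the lining of the blood spaces of the penis), kept in medium 199 with serum and heparin for 5 days. No strain, age or sex of the animals, and no genotype, is given in the sources used here. Of the libraries, 4 were from cells given Hsp70, a chaperone of the heat shock family, in high glucose, 4 from cells in high glucose alone and 3 from cells in normal glucose. The sources used here give neither the glucose concentrations nor what form or dose of Hsp70 was used. The genes were chosen with earlier results of these data known, and in part chosen by the log2 differences of Papss1 and Mat2b between high and normal glucose. The values against normal glucose are therefore a description without a test. The same high glucose libraries are the reference for Hsp70. For Papss1 and Mat2b the Hsp70 difference and its p are therefore not independent of that choice.

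The methionine cycle makes S-adenosylmethionine (SAM), the methyl donor of most cellular methylation. Mat2a encodes the catalytic subunit of the methionine adenosyltransferase that makes SAM, and Mat2b its regulatory subunit. Methyl transfer leaves S-adenosylhomocysteine, which Ahcy splits into homocysteine and adenosine, and the cobalamin enzyme Mtr, kept active by its reductase Mtrr, turns homocysteine back into methionine. Ahcyl1 is a relative of Ahcy known mainly as a binding partner of the inositol trisphosphate receptor. Amd1 decarboxylates SAM for the making of the polyamines spermidine and spermine. Papss1 and Papss2 each join sulfate to ATP and phosphorylate the product, which gives PAPS, the sulfate donor for heparan and chondroitin sulfate chains, tyrosines, lipids and small molecules. The heparan sulfate of the endothelial surface coat is sulfated with PAPS.

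The deposited values are used as log2(normalized count + 1), and every level below is on that scale unless it is said to be per length. Normalized counts added up to 24.8 to 27.8 M per library, and the low values stood for an estimated 22.0 to 31.5 M reads. This estimate is less certain in sets 4 and 5, whose low values did not all fall in steps. The names of the deposited files place the libraries in sets 2 to 5: each set holds 1 library with Hsp70 and 1 in high glucose, and sets 3 to 5 also hold 1 in normal glucose. Whether a set is a culture, an animal or a sequencing run is not given. The 3 libraries of set 3 stood apart. The 14 endothelial markers took 0.00828% to 0.00910% of the normalized counts in set 3, against 0.00163% to 0.00246% in the other sets. Tie1 and Cldn5, which mark endothelial cells, were at 6.34 to 6.65 and 4.49 to 5.01 in set 3. Elsewhere they were at 0 to 2.33 and 0 to 0.24. Not every marker of the list was near 0 there, with Cdh5 at 5.68 to 8.26 and Egfl7 at 6.69 to 7.73. Egfl7 was at 7.53 to 7.95 in set 3 and so overlapped between set 3 and the rest. Tek and Flt1 overlapped too, at 5.22 to 5.89 and 6.44 to 6.55 in set 3 and at 5.09 to 6.44 and 6.35 to 7.73 elsewhere. The 10 fibroblast markers took 1.32% to 1.64% in set 3 and 0.597% to 1.07% elsewhere, and Dcn, a collagen-binding proteoglycan of fibroblasts, was at 17.08 to 17.63 and 15.17 to 16.02. Lum, Thy1 and Postn were also higher in set 3 without overlap, while Col1a1, Col1a2, Col3a1, Pdgfra, Fbln1 and Mfap5 overlapped. The median count of the list overlapped too, at 22320 to 25029 in set 3 and 12576 to 23251 elsewhere. The 10 leukocyte markers took 0.0150% to 0.0182% in set 3 and 0.00132% to 0.00165% elsewhere. The 10 smooth muscle and pericyte markers took 0.0446% to 0.0520% in set 3 and 0.0286% to 0.0365% elsewhere, and the 8 Schwann cell markers 0.0147% to 0.0297% and 0.00388% to 0.00969%. Each of the 3 groups holds 1 library of set 3, so the groups overlap in every marker list. In such bulk RNA, fewer cells of a type and less RNA per cell cannot be told apart.

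The stretches just upstream of the paired genes Papss1 and Papss2, and of Mat2a and Mat2b, are shown because the members of each pair are set against each other within libraries below. They are the 250 bases before the start of each gene, from RefSeq on GRCm38.p6, the assembly also called mm10. The windows are chr3:131564518-131564767 on the plus strand for Papss1, chr19:32595465-32595714 on the plus strand for Papss2, chr6:72439557-72439806 on the minus strand for Mat2a and chr11:40692683-40692932 on the minus strand for Mat2b. Capitals mark letters that match a CCAAT box (CCAAT), a GC box (GGGCGG) or a TATA box (TATAAA) on either strand, and in Mat2a a pair of GC boxes overlap each other.
Papss1: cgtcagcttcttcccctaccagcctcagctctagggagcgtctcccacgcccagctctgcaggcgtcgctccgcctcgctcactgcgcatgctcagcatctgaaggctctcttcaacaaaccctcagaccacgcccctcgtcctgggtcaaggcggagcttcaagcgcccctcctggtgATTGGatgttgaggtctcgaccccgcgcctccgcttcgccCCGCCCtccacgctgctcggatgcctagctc
Papss2: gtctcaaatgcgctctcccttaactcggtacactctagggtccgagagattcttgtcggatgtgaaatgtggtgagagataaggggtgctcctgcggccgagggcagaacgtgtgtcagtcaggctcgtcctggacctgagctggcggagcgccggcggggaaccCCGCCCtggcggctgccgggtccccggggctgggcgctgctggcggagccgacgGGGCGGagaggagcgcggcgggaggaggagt
Mat2a: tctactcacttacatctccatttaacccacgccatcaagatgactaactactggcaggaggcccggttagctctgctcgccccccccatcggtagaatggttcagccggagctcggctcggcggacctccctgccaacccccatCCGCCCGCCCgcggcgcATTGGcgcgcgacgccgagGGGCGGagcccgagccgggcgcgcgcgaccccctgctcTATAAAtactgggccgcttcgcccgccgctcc
Mat2b: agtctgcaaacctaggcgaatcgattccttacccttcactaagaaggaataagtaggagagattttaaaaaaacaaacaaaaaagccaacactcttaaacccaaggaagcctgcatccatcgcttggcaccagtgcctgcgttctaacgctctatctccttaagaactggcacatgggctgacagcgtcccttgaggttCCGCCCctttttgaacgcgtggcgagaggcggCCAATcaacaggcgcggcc
In the Papss1 window a CCAAT box on the opposite strand begins 71 bases before the start and a GC box begins 31 bases before it. The Papss2 window holds GC boxes at 31 and 85 bases and no CCAAT match. Mat2a has the letters TATAAA 32 bases before its start, a CCAAT box at 89 bases and GC boxes at 70, 102 and 106 bases, while Mat2b has a CCAAT box at 19 bases and a GC box at 51 bases. The windows of Papss1, Papss2, Mat2a and Mat2b are 65.2%, 67.6%, 67.6% and 50.4% G and C. Each of the 9 genes had a GC box in its window and 6 had a CCAAT box. Of 32851 windows of this length, 32.7% hold a GC box, 33.8% a CCAAT box and 12.4% a TATA box. Neither the E-box CACGTG, found in 6.02% of windows, nor TGATGNAA, a core of sites bound by the stress factor ATF4 with a CEBP partner and found in 3.45%, was in the window of any of the 9. These matches are letters in a window, not sites shown to be bound.

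The genes lie on 7 chromosomes of mm10, with positions here from GENCODE M21. Papss1 spans chr3:131564768-131643671 and Papss2 chr19:32595790-32667187, both on the plus strand, and the other 7 are on the minus strand. Mat2a spans chr6:72432799-72439558 and Mat2b chr11:40679314-40695203, so that the RefSeq start used for the Mat2b window lies inside the GENCODE gene. Ahcy is at chr2:155059310-155074497, Ahcyl1 at chr3:107663118-107696560, Mtr at chr13:12182712-12258113, Mtrr at chr13:68560780-68582149 and Amd1 at chr10:40287458-40302186. Mtr and Mtrr share chromosome 13, and Papss1 and Ahcyl1 chromosome 3, far apart in both cases. Ahcy and Papss1 each overlap a gene annotated on the opposite strand, Gm45609 and Gm42881, whose levels were not analysed here, so that without the strand setting of the counting their reads cannot be told apart.

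All 9 genes were expressed well above the detection floor, with 199 to 6269 implied reads per library. Divided by the length of each gene's exons, the order of normalized count per kilobase was Ahcyl1, Mat2a, Papss1, Ahcy, Amd1, Mat2b, Papss2, Mtrr and Mtr. The median over the 11 libraries was 756 per kilobase for Ahcyl1 (range 677 to 903), 548 for Mat2a (411 to 777) and 336 for Papss1 (281 to 413). The catalytic subunit gene Mat2a thus stood above its regulatory partner Mat2b, at 168 (130 to 208), and Papss1 above Papss2, at 67.6 (51.7 to 85.6), in every library. Ahcy had a median of 280 (212 to 313) and Amd1 one of 237 (179 to 271), with Ahcy above Amd1 in 8 of 11 libraries. The remethylation genes were lowest, Mtrr at 54.3 (47.2 to 76.0) and Mtr at 50.8 (38.7 to 69.0), and Mtrr exceeded Mtr in 6 of 11 libraries, so that these neighbours did not differ beyond their spread. Of the 8 neighbouring pairs in this order only Mat2b and Papss2 had ranges that did not touch. The liver-type catalytic gene Mat1a was at 0 to 1.99 on the log2 scale in all libraries.

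Papss1 had its highest mean level in high glucose alone, a lower one with Hsp70 and the lowest in normal glucose. Its log2 level was 9.85, 10.002, 9.97 and 10.03 in the Hsp70 libraries (replicates 1 to 4), 10.01, 10.17, 10.30 and 10.06 in the high glucose libraries (replicates 1 to 4) and 9.87, 9.91 and 9.74 in the normal glucose libraries (replicates 1 to 3). All 4 high glucose libraries lay above all 3 normal glucose libraries, while the Hsp70 libraries overlapped both groups. The group means were 9.96 ± 0.0772 with Hsp70 (SD, n = 4), 10.13 ± 0.129 in high glucose (SD, n = 4) and 9.84 ± 0.0886 in normal glucose (SD, n = 3). The difference of high from normal glucose was 0.29 log2 (SE 0.128), and within sets 3, 4 and 5 it was 0.29, 0.39 and 0.31. Without set 3 the pooled difference was also 0.29. With Hsp70 the level differed from that in high glucose by −0.17 log2 (SE 0.118, 95% interval −0.43 to 0.09), with an adjusted p of 1.00 by limma. The Hsp70 library was the lower one in all 4 sets, by −0.16, −0.16, −0.33 and −0.03 in sets 2 to 5, which was the case for 4.42% of all genes tested. Since Papss1 was chosen in part by the values of these high glucose libraries, nothing is read from this. Hsp70 minus normal glucose was 0.12 log2, with 0.13, 0.05 and 0.29 in sets 3 to 5.

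Papss2, the paralog that in mouse and human is needed for cartilage sulfation, had its highest mean in normal glucose, a lower one in high glucose and the lowest with Hsp70, so that it ran opposite to Papss1 against normal glucose and not between Hsp70 and high glucose. Its level was 7.59, 7.93, 7.66 and 8.11 with Hsp70, 8.03, 7.87, 8.03 and 7.81 in high glucose, and 7.98, 8.13 and 8.32 in normal glucose. The 3 groups overlapped. The means were 7.82 ± 0.238 with Hsp70 (SD, n = 4), 7.93 ± 0.112 in high glucose (SD, n = 4) and 8.14 ± 0.170 in normal glucose (SD, n = 3). For high minus normal glucose the difference was −0.21 log2 (SE 0.173) and lay below 0 in each set, at −0.11, −0.10 and −0.51 in sets 3 to 5. Hsp70 minus normal glucose was −0.32, at −0.05, −0.47 and −0.21. Hsp70 minus high glucose was −0.11 (SE 0.160, 95% interval −0.46 to 0.24, adjusted p = 1.00 by limma), and its sign changed between sets, at −0.43, 0.05, −0.36 and 0.30 in sets 2 to 5.

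Within a library, the log2 level of Papss1 minus that of Papss2 carries a constant offset from the lengths of the genes, so only its change between libraries is read. It was 2.26, 2.07, 2.30 and 1.92 with Hsp70, 1.98, 2.29, 2.28 and 2.25 in high glucose and 1.89, 1.78 and 1.42 in normal glucose. All 8 libraries in high glucose, with or without Hsp70, lay above the 3 in normal glucose. The nearest values were 1.92 in Hsp70 replicate 4 and 1.89 in normal glucose replicate 1, which are of different sets. Inside sets 3 to 5 the Hsp70 library exceeded the normal glucose library by 0.18, 0.52 and 0.50, and the high glucose library exceeded it by 0.40, 0.49 and 0.83. This difference was put together after the values were seen and involves the contrast on which Papss1 was chosen, so it is given without a test. How many other gene pairs separate in this way was not counted, so nothing is read from the separation.

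**Figure D1:**
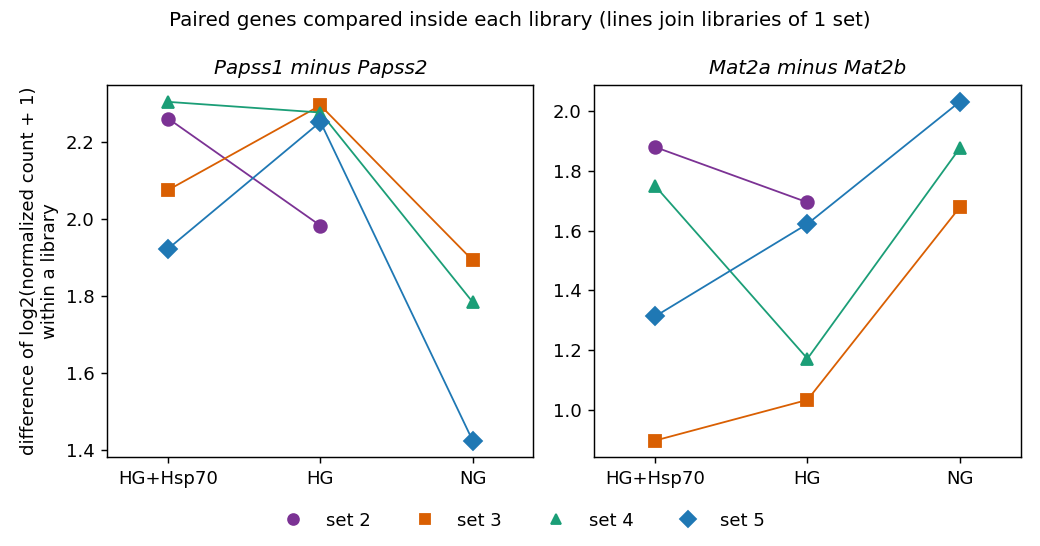
Difference of log2(normalized count + 1) between paired genes inside each library (vertical axis, log2 units) by group (horizontal axis: HG+Hsp70, high glucose with Hsp70; HG, high glucose; NG, normal glucose), for Papss1 minus Papss2 on the left and Mat2a minus Mat2b on the right; markers show the file set and lines join libraries of 1 set. On the left the 8 libraries in high glucose lie between 1.92 and 2.30 and the 3 in normal glucose between 1.42 and 1.89; on the right the groups overlap, with 1.68 to 2.03 in normal glucose, and within each of sets 3 to 5 the normal glucose library is the highest.

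The regulatory subunit gene Mat2b resembled Papss1 between high and normal glucose. It stood at 9.89, 9.95, 9.52 and 9.54 with Hsp70, at 9.72, 10.03, 9.88 and 9.76 in high glucose and at 9.54, 9.70 and 9.34 in normal glucose. High and normal glucose did not overlap, but only just: the lowest high glucose library was at 9.719 and the highest normal glucose library at 9.700, and the Hsp70 libraries overlapped both. The means were 9.73 ± 0.228 with Hsp70 (SD, n = 4), 9.85 ± 0.137 in high glucose (SD, n = 4) and 9.53 ± 0.178 in normal glucose (SD, n = 3). High glucose minus normal glucose was 0.32 log2 (SE 0.160) and was positive in each set, at 0.49, 0.18 and 0.42 in sets 3 to 5. It was 0.26 without set 3. Hsp70 minus normal glucose was 0.20, at 0.42, −0.18 and 0.20 in sets 3 to 5. The Hsp70 group differed from high glucose by −0.12 (SE 0.148, 95% interval −0.44 to 0.20, adjusted p = 1.00 by limma), at 0.17, −0.07, −0.36 and −0.22 in sets 2 to 5.

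Mat2a varied most among the 9 genes and showed no such order of groups. Its levels were 11.77, 10.85, 11.26 and 10.86 with Hsp70, 11.41, 11.06, 11.05 and 11.38 in high glucose and 11.21, 11.58 and 11.38 in normal glucose. The Hsp70 libraries held both the highest and the lowest value, and all groups overlapped. The means were 11.18 ± 0.434 with Hsp70 (SD, n = 4), 11.23 ± 0.199 in high glucose (SD, n = 4) and 11.39 ± 0.181 in normal glucose (SD, n = 3). Hsp70 minus high glucose was −0.04 (SE 0.205, 95% interval −0.49 to 0.41, adjusted p = 1.00 by limma), but within sets 2 to 5 it was 0.35, −0.21, 0.21 and −0.53. Hsp70 minus normal glucose was −0.20 and negative in each of sets 3 to 5, at −0.36, −0.31 and −0.52. High glucose minus normal glucose was −0.16 (SE 0.222), at −0.16, −0.52 and 0.0069. Particl, an RNA transcribed from the strand opposite to Mat2a, was at 5.14 to 7.35, and its highest value was in normal glucose replicate 2, where Mat2a was at 11.58. Of the 50-base stretches of Mat2a transcripts, 14.2% also occur in transcripts of Particl, 6030443J06Rik or Gm9523. The sources used here do not say how the counting treated strand and shared reads, so the level of Mat2a is uncertain to that extent. The within-library difference of Mat2a and Mat2b, again with an offset from length, was 1.88, 0.90, 1.75 and 1.31 with Hsp70, 1.69, 1.03, 1.17 and 1.62 in high glucose and 1.68, 1.88 and 2.03 in normal glucose, with all groups overlapping. Inside sets 3, 4 and 5 it differed from normal glucose by −0.78, −0.13 and −0.72 with Hsp70 and by −0.64, −0.70 and −0.41 in high glucose, below 0 in each set. The high glucose library that overlapped normal glucose is the one of set 2, at 1.69, which has no normal glucose partner. This difference too was formed with the values known and is given without a test.

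**Figure D2:**
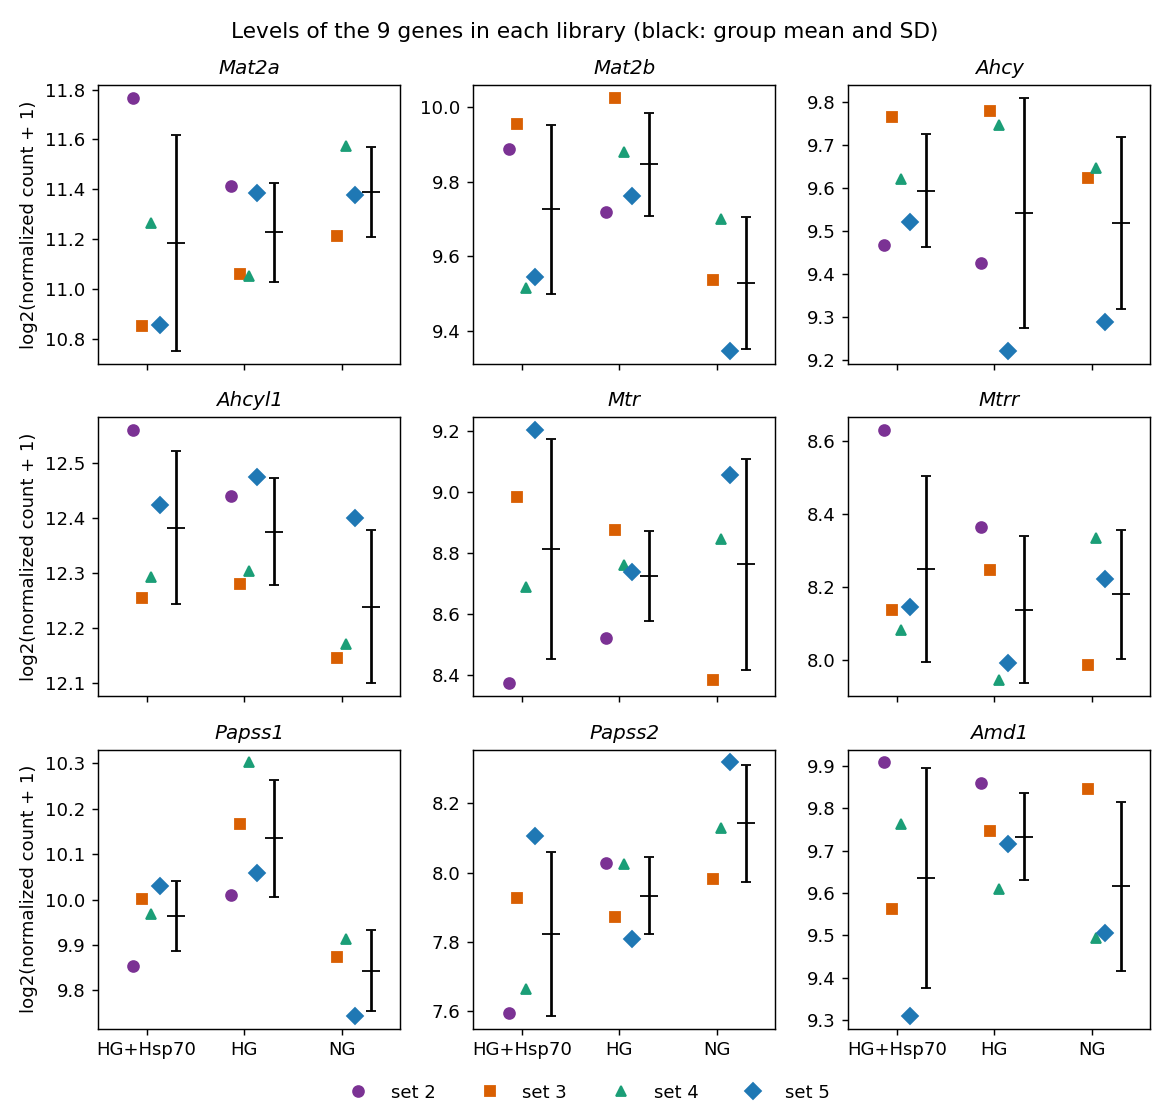
Levels of the 9 genes in each library, as log2(normalized count + 1) on the vertical axis of each panel, by group on the horizontal axis (HG+Hsp70, high glucose with Hsp70, n = 4; HG, high glucose, n = 4; NG, normal glucose, n = 3); markers give the file set and the black bar the group mean and SD. The vertical axes do not start at 0 and differ between panels; in high glucose, Papss1 and Mat2b lie above all normal glucose libraries (at least 10.01 against at most 9.91 for Papss1, and 9.719 against 9.700 for Mat2b).

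The group means of the hydrolase gene Ahcy lay close together. Its levels were 9.47, 9.76, 9.62 and 9.52 with Hsp70, 9.42, 9.78, 9.75 and 9.22 in high glucose and 9.62, 9.65 and 9.29 in normal glucose. The groups overlapped, with high glucose spread most widely, and set 3 held the highest value of each high glucose group. The means were 9.59 ± 0.131 with Hsp70 (SD, n = 4), 9.54 ± 0.267 in high glucose (SD, n = 4) and 9.52 ± 0.200 in normal glucose (SD, n = 3). Hsp70 minus high glucose was 0.05 (SE 0.158, 95% interval −0.29 to 0.40, adjusted p = 1.00 by limma). Between high and normal glucose the difference was 0.02 (SE 0.171). Reads of Ahcy may be shared with near copies, since 68.7% of its 50-base stretches also occur in transcripts of 4 other genes. Gm4737, Gm9826 and Gm5638 share the most, and Gm4737 was at 7.50 to 8.42 in these files.

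Its relative Ahcyl1, the most highly expressed of the 9, had 12.56, 12.25, 12.29 and 12.42 with Hsp70, 12.44, 12.28, 12.30 and 12.48 in high glucose and 12.14, 12.17 and 12.40 in normal glucose. The groups overlapped, and within each of sets 3 to 5 the normal glucose library was the lowest. High glucose minus normal glucose was 0.14 (SE 0.141), at 0.13, 0.13 and 0.08 in the 3 sets, and Hsp70 minus normal glucose was 0.14, at 0.11, 0.12 and 0.02. The means were 12.38 ± 0.139 with Hsp70 (SD, n = 4) and 12.24 ± 0.140 in normal glucose (SD, n = 3), and Hsp70 minus high glucose was 0.0078 (SE 0.131, 95% interval −0.28 to 0.29, adjusted p = 1.00 by limma). Ahcyl1 had no 50-base stretch in common with transcripts of other genes. The within-library difference of Ahcy and Ahcyl1 was formed as well, and its change against normal glucose differed in sign between sets. That change was −0.144 to 0.021 log2 in high glucose and −0.147 to 0.208 log2 with Hsp70.

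Mtr, the methionine synthase, was at 8.37, 8.98, 8.69 and 9.20 with Hsp70, at 8.52, 8.88, 8.76 and 8.74 in high glucose and at 8.38, 8.85 and 9.06 in normal glucose. These levels spread more inside the Hsp70 and normal glucose groups, with SDs of 0.361 (n = 4) and 0.346 (n = 3), than in high glucose, with an SD of 0.148 (n = 4), and the groups overlapped. The difference of Hsp70 from high glucose was 0.09 (SE 0.202, 95% interval −0.35 to 0.53, adjusted p = 1.00 by limma), at −0.15, 0.11, −0.07 and 0.46 in sets 2 to 5. That of high minus normal glucose was −0.04 (SE 0.218), at 0.49, −0.09 and −0.32 in sets 3 to 5.

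Mtrr, its reductase, was at 8.63, 8.14, 8.08 and 8.15 with Hsp70, at 8.37, 8.25, 7.94 and 7.99 in high glucose and at 7.98, 8.33 and 8.22 in normal glucose. Replicate 1 of the Hsp70 group lay above all other libraries, and the groups overlapped. Hsp70 minus high glucose was 0.11 (SE 0.171, 95% interval −0.26 to 0.49, adjusted p = 1.00 by limma) and −0.015 without that replicate. High glucose minus normal glucose was −0.04 (SE 0.185), at 0.26, −0.39 and −0.23 in sets 3 to 5.

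Amd1, the SAM decarboxylase, was at 9.91, 9.56, 9.76 and 9.31 with Hsp70, at 9.86, 9.75, 9.61 and 9.72 in high glucose and at 9.85, 9.49 and 9.51 in normal glucose. The groups overlapped, and the lowest value was that of Hsp70 replicate 4. For Hsp70 minus high glucose the difference was −0.10 (SE 0.154, 95% interval −0.43 to 0.24, adjusted p = 1.00 by limma). It was 0.12 (SE 0.166) for high minus normal glucose. Most of the Amd1 transcript, 78.1% of its 50-base stretches, is shared with transcripts of 8 other genes, most of all Amd2, Amd-ps3 and Amd-ps4. Amd2 was counted at 10.46 to 11.08 in these libraries, above Amd1. The split of reads between these copies is therefore uncertain. Amd2 was at 11.08, 10.59, 10.77 and 10.46 with Hsp70, 10.93, 10.74, 10.55 and 10.68 in high glucose and 10.81, 10.52 and 10.56 in normal glucose, where it likewise overlapped between groups and was highest in Hsp70 replicate 1.

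Counted over the 9 genes, none passed an adjusted p of 0.05 for Hsp70 against high glucose by limma, and 0% of 18248 genes tested did. At an unadjusted p of 0.05 the count was 0 of the 9, beside 0.745% of all genes (1.67% with the file set as a block). The groups did not overlap for 0 of the 9, beside 0.608% of all genes, and the median difference of the 9 was −0.04 log2, beside 0.0029 for all genes. The difference was above 0 for 4 of the 9, beside 50.7% of all genes, and above 0 in every set for 0 of the 9, beside 3.89%. The widest of the 95% intervals of the 9 differences reached −0.49 and 0.53, both smaller than 1 log2 unit. The SE of a difference was 0.118 to 0.205, beside a median of 0.265 for all genes. These SEs and intervals, like those given gene by gene above, are from the fit without sets. With the file set as a block the SE was 0.094 (Ahcyl1) to 0.160 (Mtr), beside a median of 0.198 for all genes. The intervals then reached −0.45 (Papss2) and 0.45 (Mtr), and all 9 still included 0. Leaving out 1 library turned the sign of the difference of Hsp70 from high glucose for 6 of the 9 genes (Mat2a, Ahcy, Ahcyl1, Mtr, Mtrr and Amd1), and not for Papss1, Papss2 or Mat2b. Papss1 and Mat2b were chosen in part by the high glucose values that enter this difference.

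**Figure D3:**
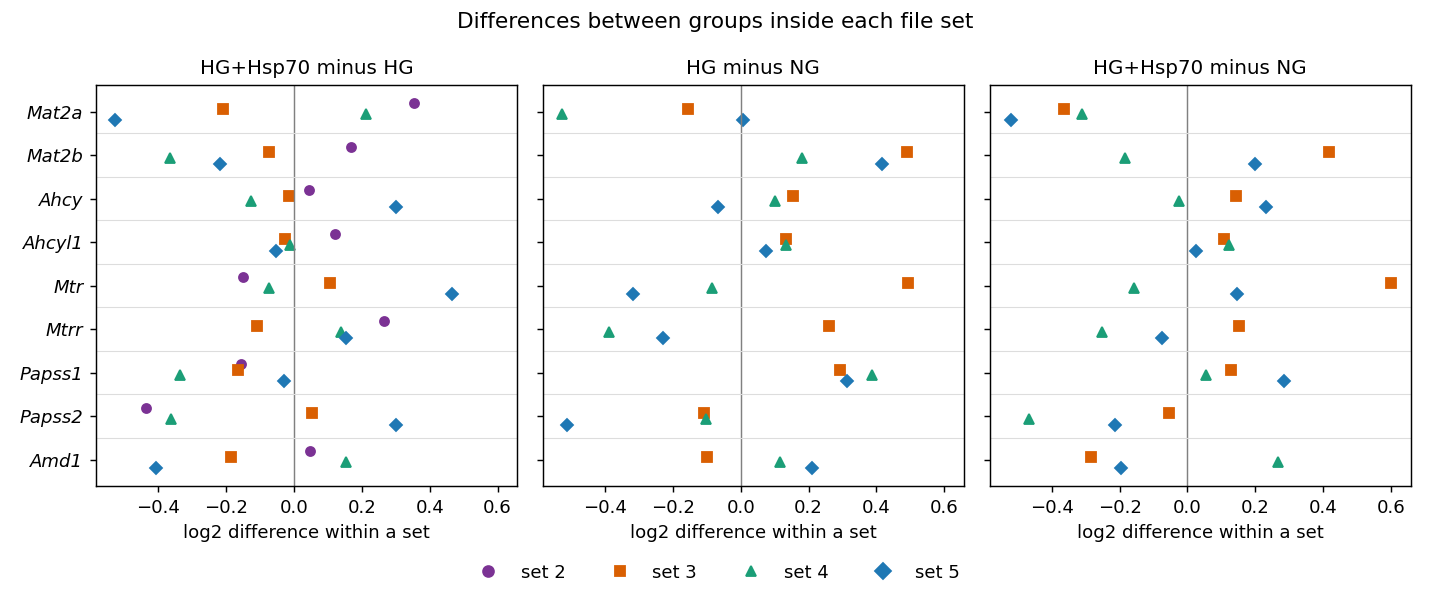
Differences in log2(normalized count + 1) (horizontal axis, log2 units) between libraries of 1 file set for the 9 genes (rows), with 1 marker per set, for high glucose with Hsp70 minus high glucose (left, sets 2 to 5), high glucose minus normal glucose (middle, sets 3 to 5) and high glucose with Hsp70 minus normal glucose (right, sets 3 to 5). Papss1 lies below 0 in every set on the left (−0.33 to −0.03) and above 0 in every set in the middle (0.29 to 0.39), while 8 of the 9 genes have markers on both sides of 0 on the left.

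For high against normal glucose, 2 of the 9 genes were higher without overlap, Papss1 and Mat2b, beside 1.06% of all genes tested, and 0 were lower without overlap, beside 1.32% (2.38% in either direction). Since these were the genes that drew attention in that contrast, nothing is read from the count. No gene passed the adjusted threshold in this contrast by limma (0%), and 1.01% of genes, 185 in all, had an unadjusted p under 0.05, against 636 (3.49%) with the file set as a block. The difference was above 0 for 5 of the 9, beside 47.9% of all genes. With the file set as a block that of Mtr turned above 0 too, at 0.069 log2. High glucose exceeded normal glucose in every set for Papss1, Mat2b and Ahcyl1, beside 11.3% of all genes, and was below it in every set for Papss2, beside 14.3%. For Hsp70 against normal glucose, which shares the normal glucose libraries, 0% of genes passed the adjusted threshold, 0.975% had an unadjusted p under 0.05 (3.22% with the block), and 7 of the 9 differences were above 0, beside 49.1% of all genes. That sign count is from the fit without sets. With the file set as a block Mtrr and Amd1 turned below 0, at −0.032 and −0.046 log2. In that contrast 0 of the 9 were higher without overlap, beside 0.482%, and 0 lower, beside 1.24% (1.72% in either direction). There Papss1 and Ahcyl1 were higher in every set, beside 7.62% of all genes, and Mat2a and Papss2 lower in every set, beside 9.92%.

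The file sets were not used to choose the genes, and the differences between them were tested with group as a term. Over all genes, the F test over the 4 sets passed for 11.9% and the contrast of set 3 with the mean of the others for 12.7%, with 8.21% higher and 4.48% lower in set 3. None of the 9 genes passed either test. The contrast of set 3 was chosen with values known, and libraries of 1 set were counted as separate samples. For the contrast of set 3 Mat2a had the smallest adjusted p of the 9: its set means were 11.04 in set 3 and 11.59, 11.30 and 11.21 in sets 2, 4 and 5, and set 3 differed by −0.36 log2 (95% interval −0.68 to −0.04, limma adjusted p = 0.151). Ahcy had set means of 9.72 in set 3 and 9.45, 9.67 and 9.34 in sets 2, 4 and 5, and differed by 0.24 (95% interval 0.02 to 0.47, adjusted p = 0.169). Both intervals leave out 0 before adjustment over all genes. The F test gave an adjusted p of 0.167 for Mat2a and 0.136 for Ahcy, the smallest of the 9 in that test, and for Ahcy it passed only without Hsp70 replicate 3 (adjusted p = 0.0429). The others differed by −0.16 (Ahcyl1) to 0.18 (Mat2b) between set 3 and the rest, with adjusted p of 0.325 to 0.952 by limma. Papss1 differed by 0.06 and Papss2 by −0.04. The summed counts of all 5 marker lists were higher in set 3, as given above, and their part in the values of Mat2a and Ahcy was not tested. The number of genes passing depended on single libraries: the contrast of set 3 passed for 966 genes without high glucose replicate 2, 1214 without Hsp70 replicate 2 and 3804 without Hsp70 replicate 3, against 2317 with all libraries.

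**Figure D4:**
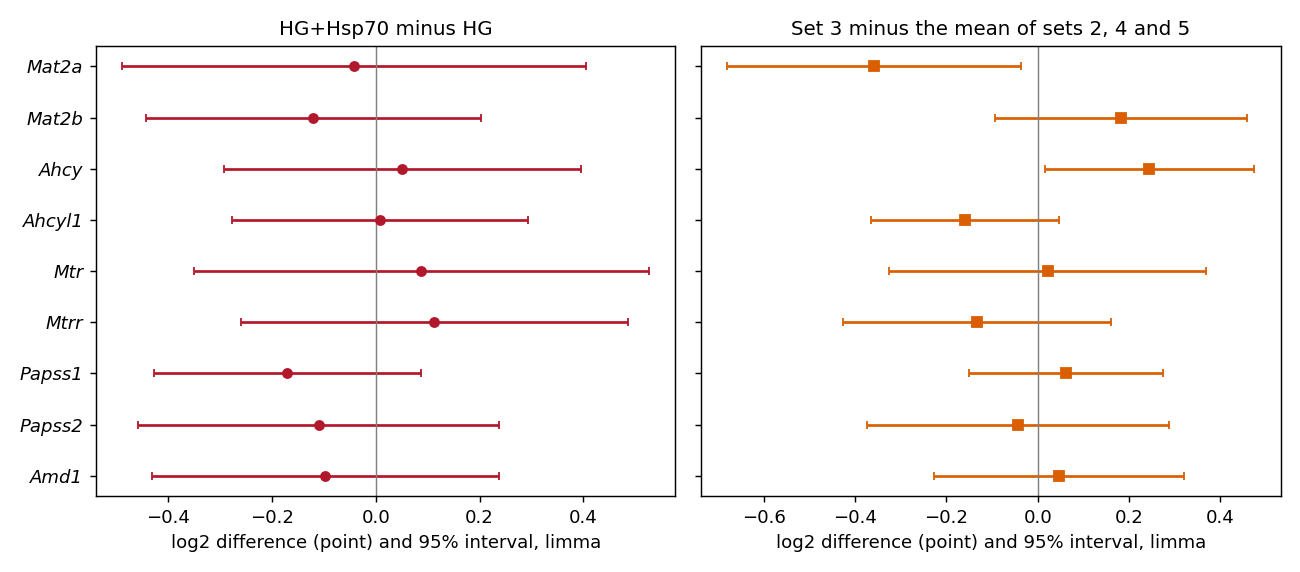
Log2 difference (point) with its 95% interval from limma (horizontal axis) for the 9 genes (rows), for high glucose with Hsp70 minus high glucose (left, n = 4 each) and for set 3 (3 libraries) minus the mean of sets 2, 4 and 5 (right, 8 libraries). All 9 intervals on the left include 0; on the right those of Mat2a (−0.68 to −0.04) and Ahcy (0.02 to 0.47) do not, and neither gene passed after adjustment over all genes.

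Of the libraries, Hsp70 replicate 1, in set 2, was the most extreme for these genes. It held the highest of the 11 values for Mat2a, Ahcyl1, Mtrr and Amd1 and the lowest for Mtr and Papss2. Over all genes tested, with ties left out, this library was highest for 13.3% and lowest for 13.5%. Over the 100 tested genes of the neighbouring pathways listed below it was highest for 28 and lowest for 11. The 4 genes that follow are examples of the high values. Mthfd2, a mitochondrial enzyme of folate one-carbon metabolism, was at 11.44 in this library and at 7.40 to 7.72 in the other Hsp70 libraries, 7.66 to 8.80 in high glucose and 7.53 to 9.46 in normal glucose. Shmt2, the mitochondrial serine hydroxymethyltransferase, was at 11.49 there and at 9.41 to 9.86, 9.38 to 9.88 and 9.13 to 9.999 in the same 3 groups. Cth, which splits cystathionine into cysteine in the transsulfuration route from homocysteine, was at 11.01 in Hsp70 replicate 1 and at 8.10 to 8.88 in the 10 other libraries. Odc1, the ornithine decarboxylase that supplies putrescine to the polyamine branch, was at 13.98 in that library and at 13.48 in the high glucose library of the same set, against at most 13.04 in the others.

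Neighbouring pathways were followed with 12 lists of genes, drawn up by pathway membership with earlier results of these data known: 113 genes, of which 110 were in the files and 100 tested. None passed an adjusted p of 0.05 for Hsp70 against high glucose by limma, and 0 of 100 had an unadjusted p under 0.05, beside the 0.745% of all genes given above. The median difference of a list for Hsp70 minus high glucose was 0.04 log2 for other methionine cycle and SAM-using enzymes, −0.01 for polyamine enzymes, −0.05 for methionine salvage and 0.03 for folate one-carbon enzymes. It was 0.09 for cobalamin handling, 0.38 for the 2 transsulfuration genes Cth and Cbs, and 0.07 for sulfide and sulfite oxidation. On the sulfate side it was −0.01 for sulfate transport, −0.05 for PAPS transport and breakdown, −0.05 for heparan sulfate sulfotransferases, 0.01 for chondroitin and keratan sulfotransferases and −0.04 for the other sulfotransferases. Apart from transsulfuration, where Cth was at 0.81 (SE 0.487) with the single high library named above and Cbs, which makes cystathionine, at −0.06 (SE 0.445), these medians lay within 0.1 log2 of 0. Among the single genes of smallest p were Gal3st3, a galactose sulfotransferase, at 0.49 (SE 0.237) and Slc25a26, which carries SAM into mitochondria, at −0.41 (SE 0.226). Slc25a26 was at 6.30, 6.04, 5.53 and 5.60 with Hsp70 and at 6.08, 6.42, 6.32 and 6.30 in high glucose, and the groups overlapped. Between high and normal glucose 0 of the 100 passed the adjusted threshold and 1 had an unadjusted p under 0.05, and between Hsp70 and normal glucose both counts were 0.

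Between file sets the same lists did hold genes past the threshold: 14 of the 100 differed between set 3 and the rest, a share of 14.0% beside 12.7% of all genes, which is close to the background. Of these, 10 were higher and 4 lower in set 3. Sulfotransferases made up 35 of the 100 genes tested and 11 of the 14 past the threshold, a share of 31.4%, for which no set test was made. Gal3st1, counted among them, reached a normalized count of 1 in too few libraries outside set 3 to pass the filter on low values there. Among genes that did, 13 of 98 listed genes (13.3%), 10 of 33 sulfotransferases (30.3%) and 12.2% of all genes differed. In the heparan sulfate list, Hs3st1, which adds the rare 3-O-sulfate used by antithrombin, was at 9.04 to 9.22 in set 3 and 7.81 to 8.35 elsewhere, a difference of 1.07 log2 (adjusted p = 0.000385). Hs3st3b1 differed by 0.90 (adjusted p = 0.0290) and Hs6st3 by 1.63 (adjusted p = 0.0438), while Hs6st2, another 6-O-sulfotransferase, was lower by −0.76 (adjusted p = 0.00310). Chst2, which sulfates N-acetylglucosamine, differed by −0.91 (adjusted p = 0.00282). The tyrosine sulfotransferase Tpst1 differed by 0.40 (adjusted p = 0.0394). Sult1a1, a phenol sulfotransferase, was at 1.73 to 3.23 in set 3 and 3.66 to 5.65 elsewhere (−1.80, adjusted p = 0.00785), and Sult1e1, the estrogen sulfotransferase, at 3.85 to 4.50 and 0.0051 to 1.97 (3.05, adjusted p = 0.00499). Gal3st2 and Sult5a1 were also higher in set 3, by 2.62 and 1.02, with levels in the other sets of 0 to 2.14 and 3.95 to 5.29. Gal3st1, at 1.45 to 3.39 in set 3 and 0 to 1.63 elsewhere, passed the filter only through set 3, so its values are a description. Such low levels depend on how values near 0 were made: each library of sets 4 and 5 held 2753 genes at 0 and those of sets 2 and 3 held 4916 to 6010.

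Away from the sulfotransferases, Shmt1, the cytosolic serine hydroxymethyltransferase, was at 5.21 to 6.10 in set 3 and 6.53 to 7.35 elsewhere (−1.20, adjusted p = 0.00371). Tst and Suox, which handle sulfide products and sulfite on the way to sulfate, differed by 1.73 (adjusted p = 0.0103) and 0.57 (adjusted p = 0.0228). Odc1 and Azin1, an inhibitor of the antizymes that restrain Odc1, passed the F test over sets (adjusted p = 0.0217 and 0.0400) and not the contrast of set 3. The PAPS synthase genes Papss1 and Papss2 themselves, with differences of 0.06 and −0.04, did not pass. The summed leukocyte, fibroblast, endothelial, Schwann cell and muscle markers were higher in set 3 too, and their part in these differences was not tested.

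**Figure D5:**
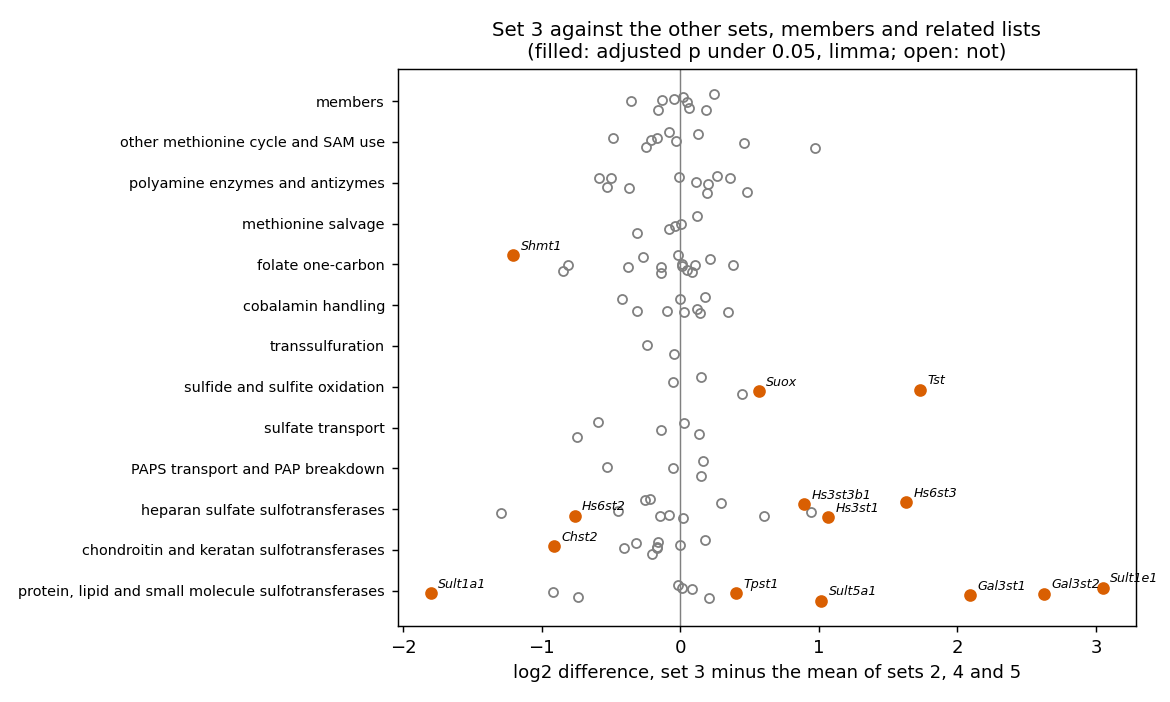
Log2 difference between set 3 (3 libraries) and the mean of sets 2, 4 and 5 (8 libraries) on the horizontal axis for the 9 genes (top row) and the genes of 12 related lists (rows below); each point is 1 gene tested, filled where the adjusted p from limma was under 0.05 and open where it was not. The 9 genes lie between −0.36 and 0.24 with none filled, and 14 genes of the lists are filled, from −1.80 (Sult1a1) to 3.05 (Sult1e1). Gal3st1 is among the filled genes and passed the filter on low values only through set 3.

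With the set means taken out, the genes whose log2 levels followed a member most closely over the 11 libraries were named by Pearson's r among 8840 genes above the median level. For Papss1 they were Rnd3 (r = 0.933), Agtr2 (0.932) and AW551984 (0.921). Papss2 was most like Gda (0.940), Cyp7b1 (0.923) and Git2 (0.920), Mat2a most like Tchh (0.977), Ctsl (0.976) and Ppic (0.971), and Mat2b most like Eif1ax (0.970), Hadh (0.966) and Sfr1 (0.962). The nearest gene was Rspry1 for Ahcyl1 (0.959), Pde7a for Mtr (0.948), Emc1 for Mtrr (0.942) and Kifc3 for Amd1 (0.952). These are the highest of 8840 values over 11 libraries that share groups, sets and depth. Among the 9 genes themselves r was highest between Mtr and Ahcy (0.734) and between Papss1 and Mat2b (0.726). It was lowest between Amd1 and Mtr (−0.848), Amd1 and Ahcy (−0.751), Ahcy and Mat2a (−0.731) and Papss2 and Ahcyl1 (−0.717). Only the set means were taken out, so differences between groups remain in these values. Papss1 and Mat2b were chosen in part by such a difference, so nothing is read from their r.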

How the data were processed

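Gene expression was measured by RNA-seq in 11 libraries, made from Trizol RNA with the Clontech SMARTer Stranded kit, per the labels. The deposited unit is log2, taken as log2(normalized count + 1) because no value is below 0 and low values fall in steps. TopHat, edgeR and mm10 are named, per the submitters' processing notes; normalization, annotation and the treatment of strand and multiply mapping reads: not given in the sources used here. Each file held 23282 rows, and 44 repeats of a symbol with lower means were dropped. The 18248 genes that reached a normalized count of 1 in 3 or more libraries were tested. The log2 values went into limma 3.58.1 (R 4.3.3) with a mean for each of the 3 groups, a trended prior, robust variances and Benjamini-Hochberg adjustment over all genes tested at 0.05. Sets were tested in a fit with set and group as terms. The scripts were tested on simulated data. Of 67 genes changed by 1 log2, 41.8% passed for Hsp70 against high glucose and 35.8% for high against normal glucose. At 2 log2 the shares were 85.1% and 74.6%. A count of 0 genes past the threshold therefore does not exclude changes of 1 log2. Positions and exon lengths are from GENCODE M21, which matched 22205 genes (95.6%); upstream windows are from RefSeq GRCm38.p6, which matched all 9 genes. Figures were drawn with matplotlib 3.10.9.

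The 9 genes and the lists were chosen with earlier results of these data known. Genes outside the 9 were named by a rule: up to 3 per list by smallest p for Hsp70 against high glucose, up to 3 per list by the F test over sets, and the 3 most alike by r, of which that for Ahcy is not reported here; Hs6st3, Gal3st1, Gal3st2, Sult5a1, Mat1a and the copies of Ahcy, Amd1 and Mat2a were added after their values were seen. Nothing says that libraries came from separate cultures or animals, so p-values measure the spread between these samples, which may be technical. No 2 libraries were copies: the smallest mean absolute log2 difference was 0.330.

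Sample titles number the normal glucose libraries 1 to 3, and the deposited files place them in sets 3 to 5. After the group means were taken out, high and normal glucose libraries of 1 set correlated at 0.594, 0.302 and 0.285 in sets 3 to 5, so that the set pairs them. By title number they correlated at −0.224, −0.357 and 0.137. Hsp70 and high glucose libraries correlated at 0.422, 0.691, 0.0586 and 0.262 in sets 2 to 5. The implied reads put the counting error of a member's level at 0.0182 to 0.102 log2, against a spread within groups of 0.102 to 0.306 log2.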

Additional observations from a re-analysis of the deposited data

Results flagged for a closer look

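Of 18 groups of 4 libraries examined, 1 held a library far from the others. The level of Mtrr in high glucose with Hsp70 was 8.63 log2 in replicate 1, against 8.08 to 8.15 in the other 3 libraries, and this gap was 0.885 of the range of the group. Chance marks about 1 in 20 such groups. The same library held the highest value of all 11 for Mat2a, Ahcyl1 and Amd1 as well.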

How the results depend on the processing

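For Hsp70 minus high glucose, the adjusted p of the 9 genes was 0.998 to 1.00 over 216 alternatives, and 21 of these turned the sign of a difference near 0. Leaving out 1 library gave −0.056 to 0.13 for Ahcy, −0.052 to 0.051 for Ahcyl1, −0.19 to 0.011 for Amd1, −0.24 to 0.070 for Mat2a, −0.043 to 0.23 for Mtr and −0.015 to 0.19 for Mtrr. Ahcyl1 was −0.030 with sets 3 to 5 only, −0.032 with sets 4 and 5 only and −0.032 after quantile normalization. With sets 2 and 3 only, Mat2a was 0.073, Mat2b 0.048 and Mtr −0.021. Without set 3 Mat2a was 0.014, also with the replicate block by file set, an alternative chosen after seeing the data. Papss1 stayed between −0.21 and −0.12 on leaving out 1 library. Its difference between high and normal glucose was then 0.24 to 0.33, and that of Mat2b 0.23 to 0.41. Both genes were chosen in part by this contrast, so nothing is read from these 2 ranges. Between set 3 and the rest, median centring gave −0.045 for Amd1, −0.069 for Mtr and −0.029 for Papss1, and leaving out 1 library gave −0.039 to 0.12 for Amd1, −0.090 to 0.21 for Mtr and −0.14 to 0.029 for Papss2. The causes were not tested.

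The number of genes past the adjusted threshold was 0 to 3 on leaving out 1 library for Hsp70 against high glucose and for Hsp70 against normal glucose, 3 being without Hsp70 replicate 2 in both. It was 613 to 5195 for the file sets, 1396 without a variance trend or robust estimates, and 966 to 3804 for set 3. With the file set as a replicate block, 0 genes passed in each of the 3 group comparisons, and 305, 636 and 587 had an unadjusted p under 0.05 for Hsp70 against high glucose, high against normal glucose and Hsp70 against normal glucose. Quantile normalization and median centring moved the median of all genes in the contrast of set 3 by −0.0767 and −0.0913 log2. Depth limits the 9 genes little, since all had at least 199 implied reads; the small number of libraries sets the intervals.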
